A study of Rattus norvegicus with 2 samples.

Results

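Fc receptor, Ms4a and innate sensor genes were compared between rat neural stem cells (NSCs) grown with ectodermal mesenchymal stem cells (EMSCs) and NSCs grown alone. The genes were taken by name: all symbols that start with Fcgr, Fcer, Fcrl, Ms4a or Nlr, the numbered Toll-like receptors, and Nod1, Nod2, Cd14, Ly96, Myd88, Pycard, Casp1 and Aim2. The rule found 73 of the 22093 genes with a symbol of their own on the array, 14 in the Fc receptor group, 20 in the Ms4a group, 15 in the Toll-like receptor group and 24 in the group of NOD-like receptors and inflammasome genes. The rule uses names and no measured value, but the families were picked with earlier results of these data known.

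The NSCs came from whole brains of Sprague-Dawley (SD) rat embryos at day 13.5 and grew as neurospheres for 10 days. For the co-cultured sample, 60 to 80 neurospheres per well were placed on passage 3 EMSCs from rats carrying a green fluorescent protein transgene, kept for 14 days in medium with 10% fetal bovine serum, and recovered by fluorescence-activated sorting. The mono-cultured sample was kept without EMSCs for the same 14 days, and the labels give neither a serum content of its own nor a sort for it, so effects of EMSCs, serum and sorting cannot be told apart. Each condition was measured on 1 whole-transcript array, so replicate error is unknown and the conditions could not be tested against each other.

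Fc receptors bind the constant part of antibodies, and most of them signal through tyrosine motifs, activating ones (ITAM) on partner chains such as the gamma chain encoded by Fcer1g and inhibitory ones (ITIM) in the tail of the receptor encoded by Fcgr2b. Ms4a genes encode small proteins with several membrane spans, some in B cells or mast cells and others in macrophages and microglia. Toll-like receptors recognise microbial lipids, proteins and nucleic acids, and NOD-like receptors assemble cytosolic complexes, the inflammasomes, in which Casp1 cleaves interleukin precursors. In the brain these families are known mainly from microglia, the resident macrophages.

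Levels below are RMA values on the log2 scale. Differences were taken as the level with EMSCs less the level in mono-culture, so that a difference of -1 is a 2-fold lower level in co-culture. Genes with a higher value of at least 4.97, the median of all gene values, were kept, which held for 31 of the 73 genes and for 11849 of all genes. A second reference was the 95th percentile of the negative control probes, 6.64, called the negative control level. Of 10 NSC markers measured 8 were kept, of which 3 passed 2-fold downward in co-culture and 0 upward, with a median of -0.57. Slc1a3, Fabp7 and Sox9 were the lowest of this list (-2.50, -1.95 and -1.66), followed by Msi1 at 5.44 against 6.44, Sox2 was 8.69 against 8.83 and Nes 8.25 against 7.45, and Pax6 and Prom1 were below the limit on both arrays. Of 12 mesenchymal markers 10 passed 2-fold upward in co-culture and 2 downward, led by Lum at 8.50 against 3.30. Snai2, Acta2 and Col1a1 differed by 4.81, 4.76 and 4.75. The list summed on the linear scale to 9338 with EMSCs and to 1095 without them.

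Most of the sensor and receptor genes that reached the limit had lower levels in the co-cultured NSCs, and none of them was 2-fold higher. Of the 31 kept genes 24 were at least 2-fold lower, 7 lay within 2-fold and 0 were at least 2-fold higher. Among all kept genes 5.54% were lower by 2-fold or more, and 5.04% were higher by as much. The median difference of the 31 genes was -2.70, and that of all kept genes was -0.06. Of the 31 genes 21 reached the limit on the mono-cultured array only, so that these had to be lower in co-culture to some extent. The other 10 reached it on both arrays, and 4 of those were at least 2-fold lower, against 2.96% of all genes that did so. Without a filter, 26 of the 73 genes were at least 2-fold lower and 0 were 2-fold higher, against 3.23% of all genes lower, and the median over the 73 genes was -0.25.

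**Figure D1:**
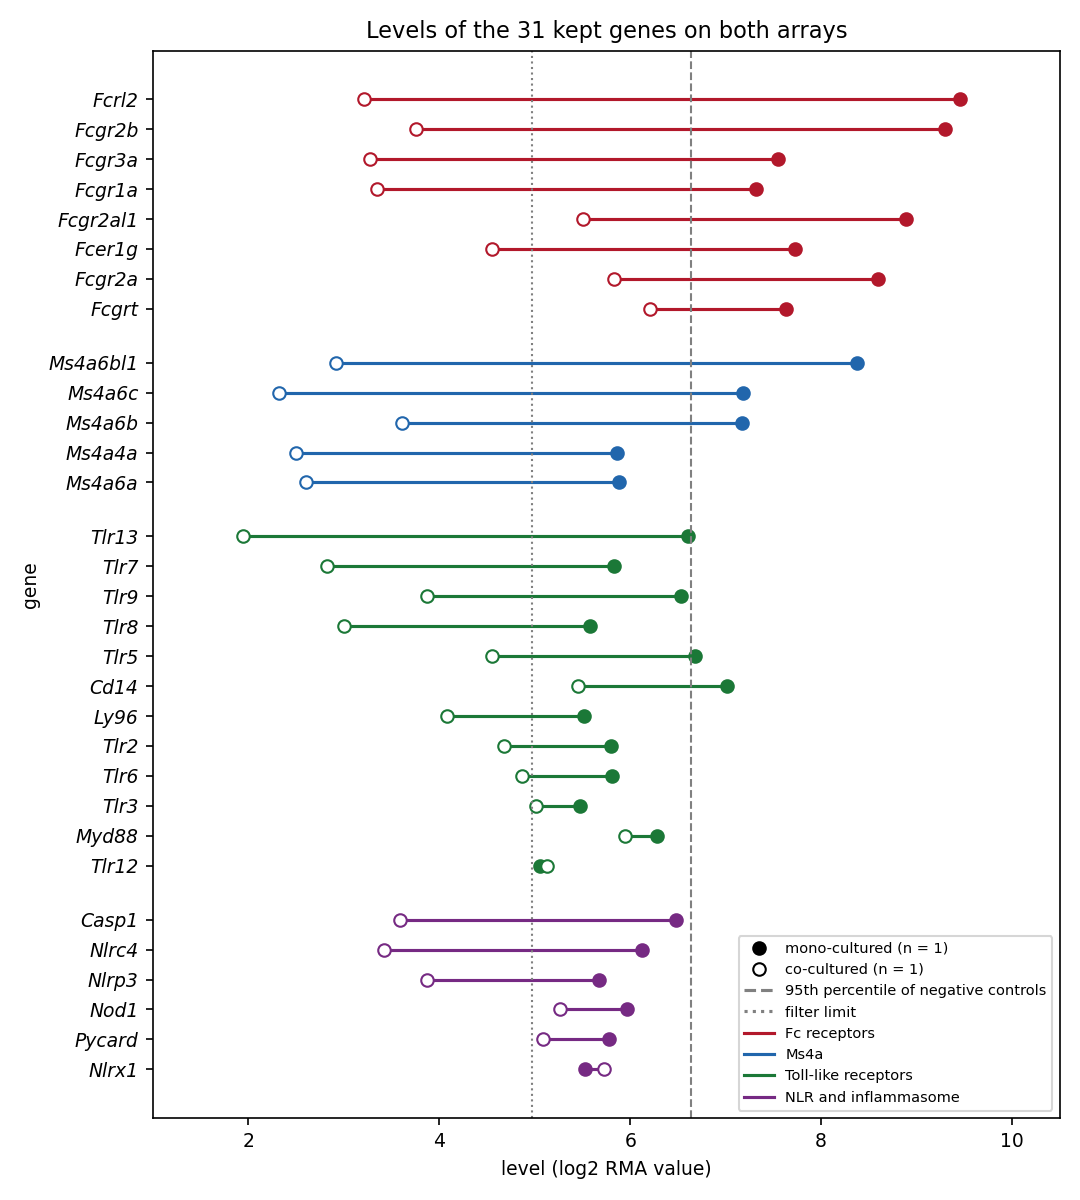
Levels (log2 RMA value, horizontal axis) of the 31 kept genes, ordered by difference within each family. Filled points are the mono-cultured and open points the co-cultured array (1 array each), the dashed line marks the negative control level of 6.64 and the dotted line the limit of 4.97. All open points lie left of the dashed line, and 13 filled points lie right of it.

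In mono-culture 13 of the 73 genes exceeded the negative control level, 8 of them Fc receptor genes. All 13 passed 2-fold downward, against 8.38% of all genes that exceeded this level in mono-culture. Both counts take genes by a high mono-cultured level, which favours a lower level in co-culture. In co-culture 0 of the 73 genes exceeded the negative control level. The co-cultured levels of the 31 kept genes ran from 1.94 to 6.21, inside the range of the negative controls, so the size of a difference depends on the background of the array. With levels below 6.64 raised to 6.64, 6 genes stayed at least 2-fold lower: Fcrl2, Fcgr2b, Fcgr2al1, Fcgr2a, Ms4a6bl1 and Fcer1g.

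**Figure D2:**
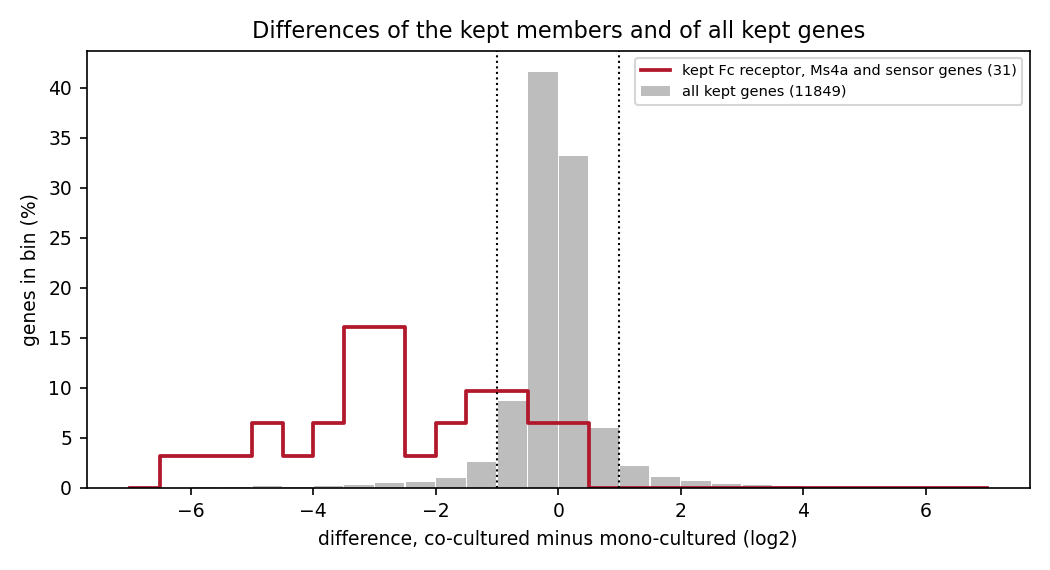
Share of genes (%, vertical axis) per bin of 0.5 in the difference between co-culture and mono-culture (log2, horizontal axis), for the 31 kept genes of these families (line) and for all 11849 kept genes (bars). The dotted lines mark 2-fold. The bars centre near -0.06, and the line has most of its area left of -1 and none right of 0.5.

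Microglia and macrophage markers were lower in co-culture too. Of 23 markers measured, 22 were kept, of which 21 passed 2-fold downward, against 5.54% of all kept genes. The kept markers had a median difference of -4.15. Of the 22 markers 16 reached the limit in mono-culture only and so had to be lower to some extent. The other 6 reached it on both arrays, and 5 of those were at least 2-fold lower, against 2.96% of all genes that did so. The marker that was not kept, Siglech, was 2.91 against 2.51. The complement gene C1qb was 4.66 against 10.45, the growth factor receptor gene Csf1r differed by -5.77, Adgre1 was 3.50 against 9.03 and Mpeg1 3.26 against 8.65. The list summed on the linear scale to 664 with EMSCs and to 10629 without them. Markers above the negative control level numbered 16 in mono-culture and 1 in co-culture. Tmem119, a marker of resident microglia, was 6.39 against 6.18 and so below that level on both arrays. In RNA from a bulk sample, fewer cells of a type and less RNA per cell cannot be told apart, and the part of microglia in the differences below was not tested.

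All 8 kept Fc receptor genes passed 2-fold downward in co-culture, and all 8 exceeded the negative control level in mono-culture. Of the 8 genes 5 reached the limit in mono-culture only and so had to be lower to some extent. The other 3 reached it on both arrays. The lowest difference of all 11849 kept genes was that of Fcrl2, which the current rat annotation also lists as Fcrls, a gene known in mouse as a microglia marker. Its level was 3.21 with EMSCs and 9.45 without them, a difference of -6.24. Fcgr2b, the inhibitory receptor for immunoglobulin G (IgG), had 3.76 against 9.30 and a difference of -5.54. Both genes were thus among the brightest of the family in mono-culture and inside the range of the negative controls in co-culture.

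The activating IgG receptors were lower as well. Fcgr3a, listed also under the name Fcgr4, was 3.27 with EMSCs and 7.55 without them. Fcgr1a, the high-affinity IgG receptor, was 3.35 against 7.32. These correspond to differences of -4.28 and -3.97. Fcgr2a, whose older names include Fcgr3, was read by 3 probe sets, with co-cultured levels of 6.08, 5.70 and 5.70 and mono-cultured levels of 8.43, 8.67 and 8.68. The 3 differences lay between -2.98 and -2.36, with an average of -2.77. The neighbouring gene Fcgr2al1 was 5.51 against 8.89, a difference of -3.39. Both genes stayed above the limit of 4.97 in co-culture, and since they are similar by name and position, their probes may read each other's transcripts.

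Fcer1g, the ITAM-bearing gamma chain shared by several Fc receptors, was 4.55 with EMSCs and 7.73 without them, a difference of -3.18. Fcgrt, the neonatal Fc receptor that recycles IgG and albumin and is not restricted to leukocytes, had the smallest difference of the 8 genes, -1.42, with levels of 6.21 and 7.64. Fcgrt differed from the others also in its co-cultured level, which was the highest of all 73 genes. With levels below 6.64 raised to 6.64, 5 of the 8 genes stayed at least 2-fold lower, and Fcgrt, Fcgr3a and Fcgr1a did not.

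The other 6 Fc receptor genes were not kept and differed by -0.49 to 0.16. Fcer1a, the chain that binds immunoglobulin E on mast cells and basophils, was 1.78 with EMSCs and 1.64 without them, and Fcer2, the low-affinity immunoglobulin E receptor of B cells, was 3.54 against 3.57. Fcrl5, Fcrl6, Fcrla and Fcrlb, known mainly from lymphocytes, were likewise dim. The gamma chain gene was therefore bright in mono-culture together with the IgG receptors that use it, and not together with the alpha chain of the immunoglobulin E receptor. Of 7 mast cell markers measured 2 were kept and 0 were 2-fold different, and of 6 B cell markers 1 was kept, Cd22, at 4.45 against 6.47. Of 9 T and NK cell markers 0 were kept. Of 8 granulocyte markers 1 was kept, Csf3r, which macrophages also express, at 4.17 against 6.30.

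Within the Ms4a family the differences split sharply by gene. All 5 kept genes, Ms4a6bl1, Ms4a6c, Ms4a6b, Ms4a4a and Ms4a6a, passed 2-fold downward in co-culture, and each reached the limit in mono-culture only. Ms4a6bl1 had 2.92 with EMSCs and 8.37 without them, a difference of -5.45, rank 8 from the lowest among all kept genes. Ms4a6c was 2.32 against 7.19, a difference of -4.87. Ms4a6b was read by 2 probe sets, one at 4.20 against 7.18 and the other at 3.01 against 7.16, which gave differences of -2.98 and -4.15. Ms4a4a, at 2.50 against 5.86, and Ms4a6a, at 2.60 against 5.88, were dimmer and lay below the negative control level on both arrays. The 5 genes ranged from -5.45 to -3.28 in their differences. With levels below 4.97 raised to 4.97, 3 of the 5 stayed at least 2-fold lower, and at 6.64 only Ms4a6bl1 did.

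Of the 15 Ms4a genes that were not kept, 1 was 2-fold lower, Ms4a7, at 3.41 against 4.55. The others differed by -0.25 to 0.28. They include Ms4a1, which encodes the B cell antigen CD20 and was 2.35 against 2.21, and Ms4a2, the beta chain of the immunoglobulin E receptor of mast cells, which had the same value of 1.81 on both arrays.

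The Ms4a genes lie in a cluster on chromosome 1. When the 20 Ms4a genes were put in their order in the current rat assembly (GRCr8), the 6 that were at least 2-fold lower fell into a stretch of 9 consecutive measured genes, from Ms4a7 at place 10 to Ms4a6a at place 18. The other 3 genes of the stretch, Ms4a4c, Ms4a4cl1 and the pseudogene Ms4a4c-ps1, were dim on both arrays and differed by -0.22 to 0.14. The stretch was drawn from the first to the last of the 6 lower genes, so no gene outside it could be 2-fold lower. Ms4a7, which sets its start, was not kept. The 11 genes outside the stretch differed by -0.25 to 0.28. Ms4a1 and Ms4a2, the B cell and mast cell genes, lie on opposite sides of it.

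**Figure D3:**
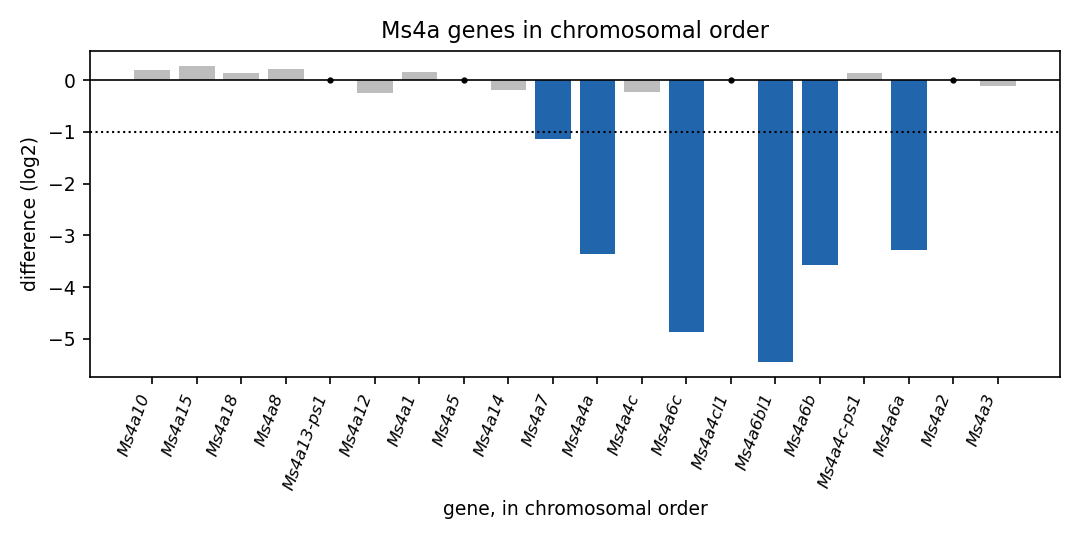
Difference between co-culture and mono-culture (log2, vertical axis, 1 array each) of the 20 Ms4a genes in their chromosomal order. Bars at or below -1 (dotted line) are blue, other bars are grey and dots mark a difference of 0. The 6 blue bars stand between places 10 and 18.

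The promoters of these families were searched for AGGAAGT on either strand (ACTTCCT on the other), a purine-rich word of the kind bound by the myeloid factor PU.1. The factor's gene, Spi1, was 4.82 with EMSCs and 6.34 without them, below the negative control level on both arrays. A link between Spi1 and the lower genes was not tested. In RefSeq windows of 300 bases, 250 before and 50 after a start site, the word stood in 8.92% of 27457 genes with at least 1 window. It stood in 7 of 17 kept genes of these families that were at least 2-fold lower and had a window, and in 7 of 30 that were not kept, such as Ms4a3 and Ms4a12. A gene counted if any of its windows had the word, and the 17 genes had 25 windows, against 33 for the 30. Per window the word stood in 8.41% of all 33469, in 8 of the 25 and in 7 of the 33. The longer word GAGGAAGT, which contains the shorter one, stood in 2.62% of all genes, in 2 of the 17 and in 5 of the 30. The word was thus also present before genes that were dim on both arrays. Related genes share promoter sequence, so these genes are not independent, and a match is no evidence of binding.

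The windows (GRCr8) of the 3 lowest kept genes with the word are shown because they belong to genes with differences of -5.45, -4.87 and -4.28. Capitals mark AGGAAGT or its reverse complement ACTTCCT.
Ms4a6bl1, chr1:217668076-217668375, plus strand: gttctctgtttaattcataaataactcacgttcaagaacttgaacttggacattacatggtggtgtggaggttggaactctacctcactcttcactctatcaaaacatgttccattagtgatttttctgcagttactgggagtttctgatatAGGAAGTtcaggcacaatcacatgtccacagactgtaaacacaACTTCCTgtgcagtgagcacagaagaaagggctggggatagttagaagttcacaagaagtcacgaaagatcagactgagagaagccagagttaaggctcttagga
Ms4a6c, chr1:217578018-217578317, plus strand: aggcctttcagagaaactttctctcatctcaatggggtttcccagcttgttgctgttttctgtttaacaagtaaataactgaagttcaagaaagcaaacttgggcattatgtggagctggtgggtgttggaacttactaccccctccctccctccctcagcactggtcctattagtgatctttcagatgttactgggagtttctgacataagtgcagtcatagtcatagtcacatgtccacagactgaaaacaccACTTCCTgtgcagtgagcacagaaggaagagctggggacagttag
Fcgr3a, chr13:85782386-85782685, plus strand: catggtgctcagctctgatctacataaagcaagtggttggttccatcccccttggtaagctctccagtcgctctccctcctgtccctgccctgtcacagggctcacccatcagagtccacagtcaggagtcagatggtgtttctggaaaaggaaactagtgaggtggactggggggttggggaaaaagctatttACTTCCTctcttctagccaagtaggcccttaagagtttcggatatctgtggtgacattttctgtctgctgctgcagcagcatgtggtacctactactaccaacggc
Counted in bases from the start site, the word begins at -98 and -55 in the Ms4a6bl1 window and at -56 in the Fcgr3a window. In the Ms4a6c window it begins 5 bases after the start site. The Ms4a6bl1 and Ms4a6c windows share a run of 25 bases, ACTTCCTgtgcagtgagcacagaag, that starts with the word.

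Of the 12 kept genes of the Toll-like receptor group, 8 passed 2-fold downward in co-culture, 4 lay within 2-fold and 0 were 2-fold higher. Their median difference was -1.50. Among all kept genes 5.54% were at least 2-fold lower. Of the 12 genes 8 reached the limit in mono-culture only and so had to be lower to some extent. The other 4 reached it on both arrays, and 1 of those, Cd14, was at least 2-fold lower, against 2.96% of all genes that did so. The 12 genes were dim: only Cd14 and Tlr5 exceeded the negative control level in mono-culture, and none did in co-culture. With levels below 4.97 raised to 4.97, 4 of the 12 stayed at least 2-fold lower.

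Of the 5 receptors for nucleic acids in endosomes 4 were at least 2-fold lower. Tlr13, which in mouse recognises bacterial ribosomal RNA, was 1.94 with EMSCs and 6.60 without them, a difference of -4.66. Tlr7 and Tlr8, neighbours on the X chromosome that recognise RNA, were 2.83 against 5.83 and 3.00 against 5.57. Tlr9, the receptor for unmethylated CpG DNA, was 3.87 against 6.53. The differences of these 3 genes were -3.01, -2.57 and -2.65. Tlr3, the receptor for viral-type duplex RNA, was 5.01 against 5.48, a difference of -0.46. Its contrast with the other 4 endosomal receptors depends on the background. Once levels below the limit were raised to it, Tlr7 and Tlr8 differed by -0.86 and -0.60, and Tlr3 still by -0.46. Tlr13 and Tlr9 stayed at least 2-fold lower, at -1.63 and -1.56. Raised to the negative control level, none of the 5 receptors differed between the arrays.

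Of the 5 receptors of the cell surface (Tlr1, Tlr2, Tlr4, Tlr5 and Tlr6) 3 were kept and 2 of these were at least 2-fold lower. Tlr5, the flagellin receptor, was 4.56 with EMSCs and 6.68 without them, a difference of -2.12. Tlr2, which recognises bacterial lipopeptides together with Tlr1 or Tlr6, was 4.68 against 5.80, a difference of -1.13. Its partner Tlr6 was 4.87 against 5.81, short of 2-fold. The other partner, Tlr1, was below the limit on both arrays, at 2.39 against 3.86. The order of the receptors depends on the background. With levels below 4.97 raised to 4.97, Tlr5 had the lowest difference, at -1.71, followed by Tlr13 at -1.63 and Tlr9 at -1.56, while Tlr7 and Tlr8 (-0.86 and -0.60) were close to Tlr6 and Tlr2 (-0.84 and -0.83).

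The receptor complex for lipopolysaccharide was lower in its accessory parts. Cd14, which passes lipopolysaccharide to the receptor, was 5.45 with EMSCs and 7.02 without them, a difference of -1.56. Ly96, the co-receptor known as MD-2, was 4.08 against 5.51, a difference of -1.44. The receptor Tlr4 itself was 4.18 against 4.95, just below the limit in mono-culture, and was not kept. Myd88, the adaptor of nearly all Toll-like receptors, was 5.95 against 6.28, a difference of -0.33. Tlr12 was 5.13 against 5.06, and Tlr11 was dim on both arrays.

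Of 24 NOD-like receptor and inflammasome genes 6 were kept. Casp1, the inflammasome protease, was 3.59 with EMSCs and 6.48 without them, a difference of -2.90. Nlrc4, the sensor partner for bacterial flagellin and secretion proteins, was 3.42 against 6.13, and Nlrp3, the sensor of cell damage and ion efflux, was 3.87 against 5.67. Their differences were -2.70 and -1.80. These 3 genes were at least 2-fold lower, against 5.54% of all kept genes. They reached the limit in mono-culture only and so had to be lower to some extent. Of the 3 kept genes that reached it on both arrays 0 were 2-fold lower. All 6 lay below the negative control level on both arrays, so that 0 remain with levels raised to 6.64.

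The other 3 kept genes lay within 2-fold. Pycard, the adaptor that joins sensors to Casp1, was 5.08 against 5.78, a difference of -0.69. Nod1, a peptidoglycan sensor of many cell types, was 5.26 against 5.97, and Nlrx1, a mitochondrial member of the family, was 5.73 against 5.53. The 18 genes that were not kept differed by -0.84 to 0.31, with the inflammasome sensor Nlrp1a, at 3.66 against 4.50, the lowest of them. Nlrc5, a regulator of MHC class I genes, was 4.30 against 4.60, and Nlrc3 was 4.27 against 4.17. Among them were the DNA sensor Aim2, at 2.88 against 3.33, the second peptidoglycan sensor Nod2, at 4.18 against 4.33, and Nlrp5, Nlrp9 and Nlrp14, known from oocytes and germ cells.

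Genes that act with these receptors were read from 4 pathway lists. For comparison, 5.54% of all kept genes were at least 2-fold lower, and 2.96% of those that reached the limit on both arrays. Of 18 kept Fc receptor signalling genes 13 were at least 2-fold lower and 0 were 2-fold higher. Their median difference was -2.59. Of the 18 genes 15, including all 13 lower ones, reached the limit in mono-culture only and so had to be lower to some extent, and of the 3 that reached it on both arrays 0 were 2-fold lower. Tyrobp, an ITAM adaptor that resembles the gamma chain in function, was 4.47 with EMSCs and 9.36 without them, and the adaptor Lcp2 was 3.89 against 8.50. The phosphatase gene Ptpn6, which acts downstream of ITIM receptors, differed by -3.82, the lipid kinase gene Pik3cg by -3.82 and the kinase gene Lyn by -3.57. The 5 kept genes within 2-fold were Plcg2 (-0.97), Grb2 (-0.34), Dok3 (-0.30), Gab2 (-0.27) and Fyn (0.13).

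Of 27 kept adaptors, kinases and regulators of Toll-like receptors, 21 lay within 2-fold, 5 were lower by 2-fold or more and 1 was higher by as much. Their median was -0.08, and 21 of the 27 reached the limit on both arrays, of which 1 was 2-fold lower. Among the lower genes, Ly86 and Cd180, which form a receptor complex related to that of Tlr4, differed by -3.30 and -3.13, and Unc93b1, which carries endosomal Toll-like receptors from the endoplasmic reticulum, was 5.45 against 7.77, a difference of -2.31. The adaptor gene Ticam2 differed by -1.33, and the fifth was Irf5 (-1.14). The exception was Lbp, which encodes the secreted protein that loads lipopolysaccharide onto CD14, at 9.10 with EMSCs and 4.12 without them. The 21 genes within 2-fold, most of them shared kinases and adaptors, ran from Irak2 at -0.89 to Tnfaip3 at 0.62.

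Of 14 kept inflammasome substrates and partners 5 were lower by 2-fold or more and 0 were higher by as much. Their median was -0.71. All 5 lower genes were among the 7 that reached the limit in mono-culture only and so had to be lower to some extent. Of the 7 that reached it on both arrays 0 were 2-fold lower. Naip6, which works with Nlrc4, differed by -2.15, and the Casp1 substrates Il1b and Il18 by -2.09 and -2.07. Il1a differed by -1.27 and Mefv by -1.05. Of 7 kept cytosolic RNA and DNA sensors 2 were at least 2-fold lower, Sting1 by -1.63 and Dhx58 by -1.11. Both reached the limit in mono-culture only, and of the 4 sensors that reached it on both arrays 0 were 2-fold lower. Ifih1, Cgas and Tbk1 differed by -0.76, -0.64 and -0.50. The lists differ in how many genes reached the limit on both arrays, so their counts were not set against each other.

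**Figure D4:**
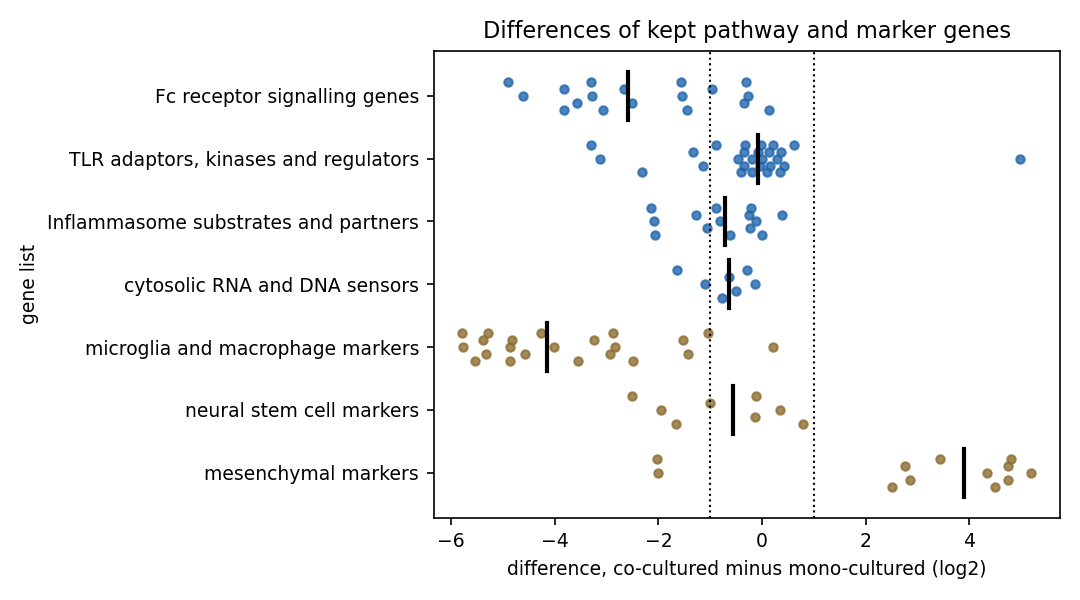
Differences between co-culture and mono-culture (log2, horizontal axis, 1 array each) of the kept genes of 4 pathway lists (blue) and 3 marker lists (brown). Each point is a gene, the black bars are list medians and the dotted lines mark 2-fold. The Fc receptor signalling list has its median at -2.59 and the Toll-like receptor list at -0.08, where Lbp is the point near 5.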

How the data were processed

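RNA from 1 co-cultured and 1 mono-cultured sample was hybridised to 1 array each. The deposited log2 levels per transcript cluster were made by the authors with RMA (background correction, quantile normalization and probe summary), per the submitters' processing notes. Software and version: not given in the sources used here. That the scale is log2 was checked on the values, whose medians were 3.75 (co-cultured) and 3.72 (mono-cultured).

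Probe sets with 1 symbol in the platform annotation (23446) were averaged per gene. The 505 with several symbols were left out, 4 of which name a gene of these families. The 73 genes had 78 probe sets, and 70 matched the GRCr8 gene table by Entrez ID with the same symbol. No p-value was computed with 1 array per group, so the number of arrays limits the precision. Between probe sets of 475 kept genes with more than 1 that reached the limit, the SD of the difference was 0.26. Dimmer probe sets were left out of it. Among 1153 negative controls the SD of the difference was 0.65 and among 399 positive controls 0.44.

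The members and the gene lists were chosen with earlier results of these data known. Named were all kept members and some that were not kept, and from each list the genes with the largest absolute differences, up to 5 per pathway and 4 per marker list. Sox2, Nes, Tmem119, Siglech, Spi1, Fyn, Grb2, Plcg2, Dok3, Gab2, Irf5, Irak2, Tnfaip3, Pax6 and Prom1 were chosen after their values were seen. So were members not kept beyond those of the rule, and the grouping of Toll-like receptors by site. No table of protein sequences was used. Alternatives were other scalings (limma 3.58.1, R 4.3.3), filters, background limits, probe set rules and thresholds. Python 3.11.15, numpy 2.4.6 and pandas 2.3.3 were used.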

Additional observations from a re-analysis of the deposited data

How the results depend on the processing

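No paired analysis was possible because each group has 1 array, and no array could be left out. Under median centring, quantile normalization and a loess fit, all 24 genes stayed at least 2-fold lower, and under every setting 0 were 2-fold higher. The deposited values were already quantile normalized, so these scalings moved the differences little. Tlr2, the closest of the 24 to 2-fold, differed by -1.13 as deposited and by -1.11, -1.10 and -1.10 after them. Background limits changed the counts most. With dim levels raised to 6.64, 6 genes were 2-fold lower (Fc receptors 5, Ms4a 1, Toll-like receptors 0, inflammasome genes 0) and the median was 0. With dim levels raised to 4.97, 17 genes in place of 24 were 2-fold lower (Fc receptors 8, Ms4a 3, Toll-like receptors 4, inflammasome genes 2) and the median was -1.42. A filter at 6.64 kept 13 genes, all 13 of them lower (Ms4a 3, Toll-like receptors 2, inflammasome genes 0; median -3.57), and one at the 75th percentile kept 16, all lower (Ms4a 3, Toll-like receptors 4, inflammasome genes 1; median -3.48). These filters leave fewer genes by construction, and the 13 genes exceeded 6.64 in mono-culture only, so they had to be lower to some extent. Without a filter the median was -0.25. At 4-fold, 5 Toll-like receptor genes passed, and at 1.5-fold 5 inflammasome genes. Of the 83 values 62 stayed within 1.5 times the reported count or within 0.26 of the median. They include all those for the brightest probe set and for genes with 1 probe set. Only 4 of the 73 genes had more than 1 probe set, so little could change under these settings.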

Other observations

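Of the 73 genes 9 had exactly the same deposited value on both arrays, among them Fcrl6, Ms4a2, Ms4a5 and Nlrp12, at levels between 1.66 and 3.73. The same held for 1414 of all 22093 genes (6.40%).

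Members made up 31 of the 11849 kept genes and 5 of the 30 lowest differences among them: Fcrl2, Fcgr2b, Ms4a6bl1, Ms4a6c and Tlr13. All 5 reached the limit on the mono-cultured array only. Their co-cultured levels, from 1.94 to 3.76, lay inside the range of the negative controls, so their ranks depend on the background. The summed linear level was 302 with EMSCs and 3012 without them for the Fc receptor group, 146 and 855 for the Ms4a group, 332 and 890 for the Toll-like receptor group, and 321 and 547 for the inflammasome group. These are sums over genes with different probes and describe the arrays only.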
